A study of Mus musculus with 6 samples.

Results

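Acaa2 and Apoe are 2 of the 50 linear transcripts that have a probe on a mouse circRNA array, and their probes were read in the hearts of WT and db/db mice. They were chosen by their values in these same hearts, as the linear transcripts that were higher in db/db hearts that passed both a 1.5-fold threshold and a P of 0.05. The difference between the groups is therefore given as a description, with no test. Each gene has 1 probe with 10 spots on each array. The Acaa2 probe, A_51_P125260, carries the only curated RefSeq mRNA of its gene, and the Apoe probe, A_51_P171999, carries 1 of 4.

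The study compared circRNAs of diabetic and healthy hearts. The WT group was 3 male C57BL/6J mice and the db/db group 3 male mice, all 3 months old per the labels, with 1 heart on each of 6 arrays. The db/db mouse lacks a working leptin receptor and is used as a model of type 2 diabetes. The methods of the paper instead give C57BL/KsJ mice of both genders for both groups. If the WT label holds and the db/db mice had another background, strain cannot be told apart from the genotype. All RNA, WT and db/db, had been digested with RNase R, an exonuclease that degrades linear RNA, before labelling with random primers. A value below is thus the signal left at a linear transcript probe after digestion, not the abundance of the mRNA before it. Probe sequences were not analysed here, so signal from mRNA that outlasted the digestion and signal from a circRNA of the same gene that holds the probe sequence cannot be told apart.

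Acaa2 encodes the mitochondrial 3-ketoacyl-CoA thiolase, which carries out the last step of a round of fatty acid β-oxidation for medium and short chains. Fatty acid β-oxidation is the main source of ATP in the adult heart. Apoe encodes apolipoprotein E, a surface protein of lipoproteins and a ligand of the LDL receptor family, made largely by the liver and by macrophages. Diabetic hearts are known to take up and burn more fatty acid than healthy ones.

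For Acaa2, the mean processed signal, which is the intensity of a spot after the scanner software removed background, was 25.1, 20.3 and 24.3 in WT replicates 1 to 3. In db/db replicates 1 to 3 it was 53.3, 70.6 and 55.1. The dimmest db/db heart was thus above the brightest WT heart, and the same held for the single spots, since the brightest WT spot read 30.2 and the dimmest db/db spot 50.8. Probes named as negative controls had median processed signals of 4.68, 3.30 and 5.28 in the WT hearts and 3.78, 3.99 and 4.73 in the db/db hearts.

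The scanner software marks spots that stand well above background. It marked 8, 10 and 5 of the 10 Acaa2 spots in WT replicates 1 to 3, and all spots in each db/db heart. Acaa2 in WT hearts was therefore close to the limit of detection. In WT replicate 3 it met the requirement of 50% of spots with none to spare. The marks did not follow its signal, since WT replicate 2, with all 10 spots marked, had the lowest mean, 20.3, against 24.3 in WT replicate 3. Spots scattered more in WT hearts too. The coefficient of variation over spots was 12.7%, 16.3% and 14.5% in the WT hearts and 4.85%, 5.58% and 9.49% in the db/db hearts.

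Apoe was brighter than its background on every array, with all 10 spots marked as well above it in all 6 hearts. Its mean processed signal was 97.6, 98.4 and 103 in WT replicates 1 to 3. In db/db replicates 1 to 3 it was 192, 196 and 185. The WT hearts lay close together, as did the db/db hearts, and no spot of a db/db heart, the dimmest at 164, reached down to the brightest WT spot at 117. The coefficient of variation over spots stayed between 3.11% and 7.84%.

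**Figure D1:**
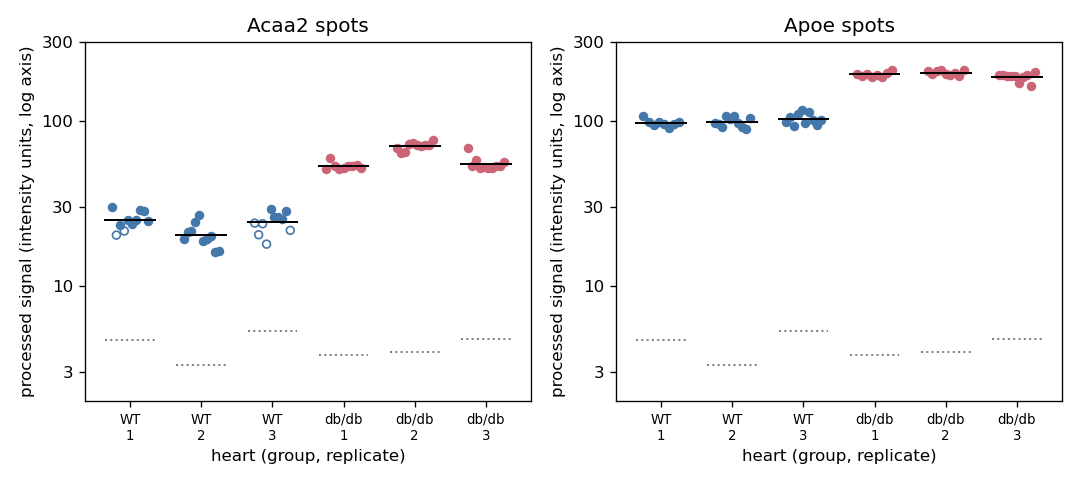
Processed signal (intensity units, log axis) of each Acaa2 and Apoe spot in 3 WT and 3 db/db hearts, with spots marked as outliers left out. Filled points are well above background and open points are not, black lines are the mean of a heart, and dotted lines are the median of the negative control probes on that array. The Acaa2 spots of WT hearts reach up to 30.2 and those of db/db hearts start at 50.8.

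The db/db arrays were brighter as a whole. Before normalization, the median difference between db/db and WT hearts over the 788 features tested was 0.32 on the log2 scale, and that of Acaa2 was 1.36 and that of Apoe 0.94. Features here are all probes that the scanner software does not treat as control spots, which takes in some spike-in and control probes of the array maker, and those tested were well above background on at least 3 arrays. Quantile normalization, which gives all arrays the same distribution, brought the median difference to 0.02.

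After normalization, Acaa2 had log2 signals of 4.81, 4.60 and 4.67 in WT replicates 1 to 3. It had 5.64, 5.87 and 5.72 in db/db replicates 1 to 3. The groups did not overlap, with a gap of 0.83 between the highest WT and the lowest db/db heart that exceeded the range within either group (0.22 in WT, 0.23 in db/db). The means were 4.69 ± 0.11 (SD, n = 3) and 5.74 ± 0.12 (SD, n = 3), a difference of 1.05 (standard error 0.11) or 2.07-fold.

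Apoe had normalized log2 signals of 6.72, 6.92 and 6.75 in WT replicates 1 to 3. It had 7.49, 7.35 and 7.37 in db/db replicates 1 to 3. These groups did not overlap either, and the gap between them, 0.43, again exceeded the range within WT (0.20) and within db/db (0.14). The means were 6.80 ± 0.11 (SD, n = 3) and 7.40 ± 0.08 (SD, n = 3), a difference of 0.61 (standard error 0.11) or 1.52-fold. Apoe was thus just inside the 1.5-fold threshold. The next tested linear transcript probe by difference, just outside it, was Lhx1, a homeobox transcription factor, at 0.50 or 1.41-fold. Between Acaa2 and Apoe in that order stood only Tm9sf1, which was not well above background on any array and was not tested.

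**Figure D2:**
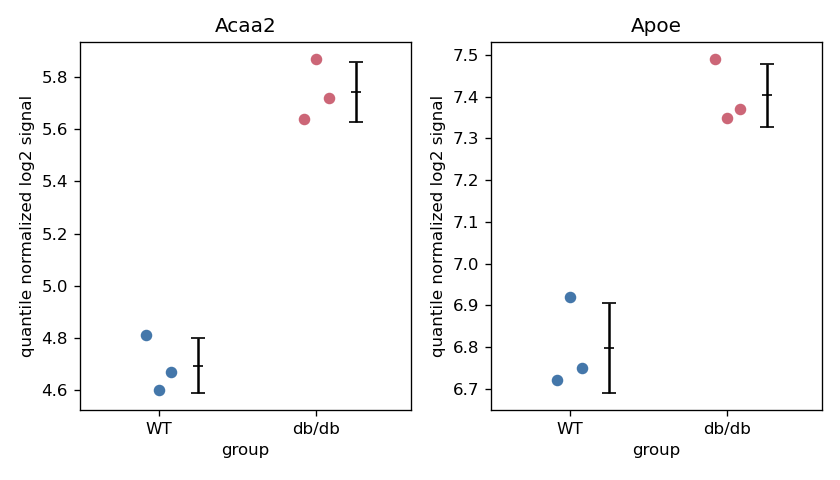
Quantile normalized log2 signal of Acaa2 and Apoe, 1 point per heart, with the mean and SD of each group (n = 3) as bars beside the points. All db/db hearts lie above all WT hearts, by 0.83 for Acaa2 and 0.43 for Apoe, and the vertical axes do not start at 0.

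The 10 spots of a probe lie in different places on the array, and the same place holds the same probe on every array, so each position gives the difference once more from the same RNA. For Acaa2 the difference was between 0.79 and 1.24 over the 10 positions, and for Apoe between 0.50 and 0.68. At each of the 10 positions of both probes, all db/db hearts were above all WT hearts. The positions share their hearts and are no replicates of the groups. Of the 60 spots of each probe, 1 for Acaa2 and 5 for Apoe had been marked as outliers, and 3 of the 5 came from 1 position in the first row of the array. The values by position keep these marked spots, and the lowest Apoe value, 0.50, came from a position marked on 2 arrays.

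The array codes in the scanner headers begin with 1 or 2, taken here as the row of the slide, and this row goes partly with the group. One row held the WT hearts together with db/db replicate 3, and the remaining db/db hearts were in the other. Within the shared row, db/db replicate 3 was above the mean of the WT hearts by 1.03 for Acaa2 and by 0.57 for Apoe. Adding the row to the model as a block gave the same values, with standard errors of 0.18 and 0.16, because db/db replicate 3 is the single db/db heart in that row. The Apoe value there is short of 1.5-fold.

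Raw signals minus the local background of a spot still hold signal that the negative control probes also gave. The median spot signal minus the local background of Acaa2 was 83.5, 73.8 and 85.8 in the WT hearts and 104, 128 and 112 in the db/db hearts. In the same unit, the negative control probes read between 55.0 and 63.0 over the 6 hearts. That signal was not taken off, so the ratios of these raw signals are smaller than they would be without it. Without the further background removal of the scanner software, the groups still did not overlap, but the ratio of the db/db to the WT mean was 1.42 for Acaa2, against 2.57-fold for the processed signal before normalization. For Apoe the same signal was 154, 150 and 162 in the WT hearts and 242, 249 and 234 in the db/db hearts, a ratio of 1.56 against 1.92-fold. After quantile normalization of these raw signals, the log2 differences were 0.45 for Acaa2 and 0.46 for Apoe, both short of 1.5-fold. The size of both differences thus depends on how background is removed, that of Acaa2 more. With normexp correction, which models background and adds an offset to all spots, the difference of Acaa2 was 0.58 with an offset of 16 and 0.40 with 50, and that of Apoe was 0.52 and 0.43. Neither gene was called at 1.5-fold there.

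At both thresholds, 77 of the 788 features tested were higher in db/db hearts (9.77%), and 152 were called in either direction (19.3%). Among the 28 linear transcript probes tested, 2 were called higher (7.14%), which are Acaa2 and Apoe by their choice, and 3 were called lower, which are Chgb, Hspb7 and Lhfp, a gene of the tetraspan superfamily. Lhfp read 5.84, 6.64 and 4.70 in WT and 4.60, 4.72 and 4.78 in db/db hearts, so its groups overlapped, and it did not pass adjustment (adjusted p = 0.12, limma). Its difference of -1.02 was -0.56 without WT replicate 2. Without WT replicate 3 it was -1.54 and passed adjustment (adjusted p = 0.02, limma). The Lhfp difference was -0.69 without normalization, and -0.56 and -0.40, both short of 1.5-fold, with normexp at offsets of 16 and 50. Scaled to the other linear transcript probes, as described below, it was -1.39 and passed adjustment (adjusted p = 0.0011, limma). Every db/db heart was above every WT heart for 184 of the 788 features (23.4%) and for 6 of the 28 linear transcript probes (21.4%). These shares are given beside the members, which were selected on this contrast, and nothing is read from them. Of all 788 differences, that of Acaa2 ranked 20 and that of Apoe 75 from the highest.

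The other 26 linear transcript probes tested had a median difference of 0.06, with quartiles of -0.09 and 0.22, and 15 were higher and 11 lower in db/db hearts. Over all features tested the median was 0.02, with 403 higher and 385 lower. Scaling the arrays to linear transcript probes instead of all features gave smaller differences for both members. Before normalization, the median signal of the 17 others well above background on all arrays was 5.91, 6.35 and 5.81 in the WT hearts and 6.43, 7.18 and 6.55 in the db/db hearts. That is a difference of 0.70, larger than the 0.32 over all features, although the median of the 17 single differences was 0.39.

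Scaled to that median, Acaa2 read 5.10, 4.35 and 5.16 in WT and 5.67, 5.33 and 5.60 in db/db hearts, still without overlap. Apoe read 7.07, 6.64 and 7.25 in WT and 7.52, 6.81 and 7.35 in db/db hearts, and here db/db replicate 2 fell below 2 of the WT hearts. The differences were 0.66 and 0.24, each with a standard error of 0.33. That scaling moved the median of all features to -0.38. Scaling by 1 value per array shifts all features alike, so relative to that median Acaa2 was higher by 1.04 and Apoe by 0.62 under any such scaling, by construction. Whether RNase R digestion left unequal amounts of linear RNA in the hearts was not tested.

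**Figure D3:**
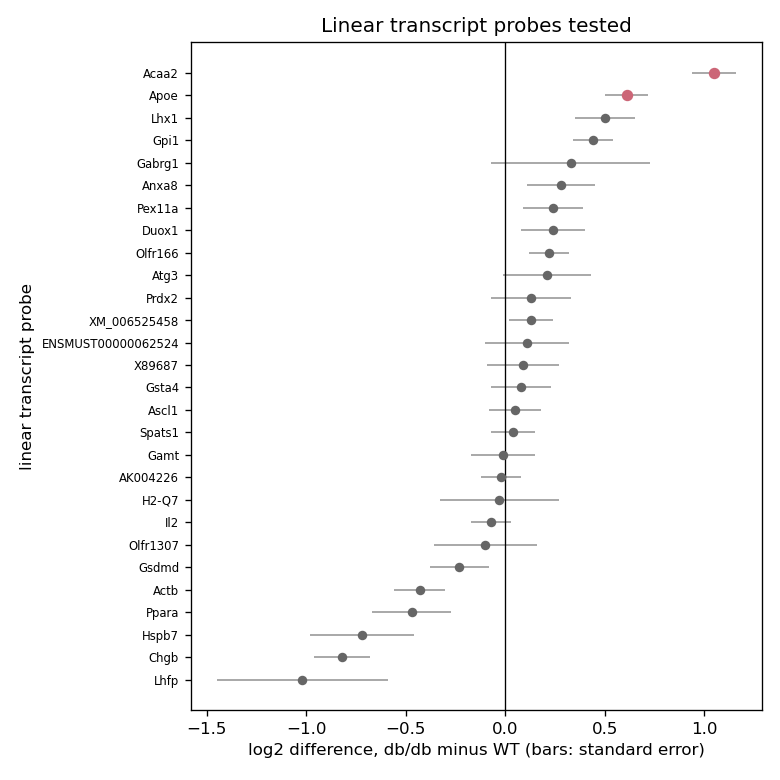
Difference in normalized log2 signal between db/db and WT hearts for the 28 linear transcript probes tested, with the standard error from limma as bars and probes without a gene symbol shown by accession. Acaa2 at 1.05 and Apoe at 0.61, in red, were selected on this difference, and the other 26 lie between -1.02 and 0.50.

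Few related genes have a probe. Of 31 genes of mitochondrial fatty acid oxidation, the array carries linear transcript probes for 2, Acaa2 and Cpt1a. Cpt1a, a carnitine palmitoyltransferase that commits fatty acids to entry into mitochondria, was not well above background on any array. Neither a level nor a fold change is given for it. Cpt1b, another carnitine palmitoyltransferase on that list, has no probe and was not looked at. Of 44 genes of lipoproteins and of lipid uptake, storage and transport, 2 have a probe, Apoe and Ppara, and of 22 other genes on a list of energy metabolism, which leaves out Gpi1, none has one.

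Ppara, a nuclear receptor that switches on genes of fatty acid oxidation, had log2 signals of 5.46, 5.46 and 5.32 in WT and 4.58, 5.37 and 4.86 in db/db hearts. The groups overlapped, since db/db replicate 2 lay above the lowest WT heart, and the difference of -0.47 (standard error 0.20) did not pass adjustment over all features tested (adjusted p = 0.12, limma). The Ppara difference was short of 1.5-fold. It was -0.13 without normalization, -0.25 and -0.17 with normexp at offsets of 16 and 50, and -0.83, past 1.5-fold, when scaled to the other linear transcript probes. Without db/db replicate 1 it was -0.30 (adjusted p = 0.21, limma), and without db/db replicate 2 it was -0.69 and passed adjustment (adjusted p = 0.0078, limma).

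Past an adjusted p of 0.05, limma called 224 of the 788 features (28.4%). Of the other 26 linear transcript probes, 4 were among them, 2 in each direction. Gpi1, the glycolytic enzyme glucose-6-phosphate isomerase, rose by 0.44 (adjusted p = 0.015), and all 3 db/db hearts were above all WT hearts. Lhx1 rose by 0.50 (adjusted p = 0.047), also without overlap. Chgb, chromogranin B of secretory granules, fell by 0.82 (adjusted p = 0.0058), and Actb, cytoplasmic β-actin, fell by 0.43 (adjusted p = 0.044), each with all db/db hearts below all WT hearts. These 4 kept their direction with each of the other scalings and both normexp offsets, but not their size. Scaled to the other linear transcript probes, Gpi1 was at 0.04, Lhx1 at 0.10, Chgb at -1.15 and Actb at -0.84. Without normalization, Gpi1 was at 0.74, Lhx1 at 0.80, Chgb at -0.45 and Actb at -0.14. With normexp at offsets of 16 and 50, Gpi1 was at 0.33 and 0.24, Lhx1 at 0.31 and 0.24, Chgb at -0.34 and -0.21 and Actb at -0.20 and -0.14. Over 13 refits, which were these scalings and corrections, the slide row as a block and each array left out, Chgb passed adjustment in 11, Gpi1 and Lhx1 in 6 each and Actb in 2. With the slide row as a block none of the 4 passed, with adjusted p between 0.092 and 0.3 in limma. The differences in that fit were 0.45 for Gpi1, 0.43 for Lhx1, -0.80 for Chgb and -0.55 for Actb. Gpi1, Lhx1 and Actb also lost the call without any 1 of WT replicates 1 to 3 or db/db replicate 3, and Actb without db/db replicate 2. In those refits, Gpi1 was between 0.42 and 0.48, Lhx1 between 0.47 and 0.55 and Actb between -0.50 and -0.36.

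Across the 6 hearts, the linear transcript probes most like Acaa2 were Gpi1 (Pearson's r = 0.94), Apoe (r = 0.92) and Lhx1 (r = 0.88), out of 27. Those most like Apoe were Gpi1 (r = 0.96), Olfr166 (r = 0.92), an olfactory receptor gene, and Acaa2 (r = 0.92). The 6 points are 3 WT and 3 db/db hearts, so these coefficients hold the difference between the groups, and they carry no p. Olfr166 differed by 0.22 (adjusted p = 0.13, limma), and by -0.16 when scaled to the other linear transcript probes. Without normalization Olfr166 differed by 0.54 and passed adjustment (adjusted p = 0.017, limma).

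The cell types behind the signals could not be followed far. Of 14 cardiomyocyte markers the array has a linear transcript probe for 1, Hspb7, a small heat shock protein of heart muscle, and of 5 neuroendocrine and neuronal markers for 1, Chgb. No probe is there for the 9 macrophage, 6 adipocyte, 5 endothelial, 6 fibroblast, 4 smooth muscle and pericyte, 4 erythroid or 4 hepatocyte markers. Hspb7 was well above background in all 6 hearts, with 9.19, 9.09 and 9.19 in WT and 8.95, 7.85 and 8.49 in db/db hearts. Its db/db hearts all lay below the WT hearts, by -0.72 in the mean (standard error 0.26, adjusted p = 0.074, limma), so it did not pass adjustment. The Hspb7 difference was -0.40, short of 1.5-fold, without normalization, -0.65 and -0.60 with normexp at offsets of 16 and 50, and -1.10 when scaled to the other linear transcript probes. Without db/db replicate 2 it was -0.42, also short of 1.5-fold. It passed adjustment in 3 of the 13 refits. Chgb was well above background in 5 of the 6 hearts, with 4.92, 4.74 and 5.16 in WT and 4.01, 4.20 and 4.14 in db/db hearts. In RNA of whole heart tissue, fewer cells of a type and less RNA per cell cannot be told apart, and the part of the cell make-up in the Acaa2 and Apoe values was not tested.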

How the data were processed

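Per the labels, RNA of each heart was digested with RNase R, labelled with Cy3 and hybridized to an Arraystar mouse circRNA array. The authors deposited the intensity of each spot, background-corrected but not normalized between arrays, from Agilent Feature Extraction 11.0.1.1 (submitters' processing notes). The authors' table of processed values was not used here.

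Control spots were removed, as were spots that the software marked non-uniform or population outliers. Only the differences by position and 1 of the alternatives kept the marked spots. For each probe the mean log2 processed signal over its spots was taken, and these means were quantile normalized across arrays, control spots aside. A probe counted as well above background on an array with at least 50% of its spots marked so. The 788 probes that met this on at least 3 arrays were fitted with limma 3.58.1 in R 4.3.3, with Benjamini-Hochberg adjustment over all of them, and the script was tested on simulated data. They were 742 circRNA, 28 linear transcript and 12 circRNA control probes, 3 negative controls, 2 ERCC spike-in probes and 1 other control. Calls required 1.5-fold or more together with an unadjusted P below 0.05. Symbols came from RefSeq accessions (GRCm38.p6), which matched 44 of 50 linear transcript probes. Of these 50, 22 were not tested.

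The members and gene lists were chosen with earlier results of these data known. Named besides them were list genes with a probe, linear transcripts past adjusted p 0.05, the 3 most correlated with each member and those next to it by difference. Hspb7 and Chgb are list markers, and Lhfp was named after its values were seen, because it completes a count. The alternatives were other scalings, background corrections, spot summaries, filters, tests, blocks and each array left out. For named genes other than the members, they were chosen after seeing the data. The number of arrays limits the precision.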

Additional observations from a re-analysis of the deposited data

How the results depend on the processing

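Acaa2 and Apoe were higher in db/db hearts under all 17 alternatives run for each. Both were chosen as higher in these same hearts, so the shared direction is no support for a difference. The difference of Acaa2, 1.05, moved by less than 1 SD between replicates (0.11) under 12 of them and that of Apoe, 0.61, (SD 0.09) under 13. These counts include the replicate block, which cannot change the difference in this balanced layout. Without normalization between arrays the differences were 1.36 and 0.94. Scaled to the other linear transcript probes they were 0.66 and 0.24, each with a standard error of 0.33, and the Apoe groups overlapped there. With spot medians minus background medians, where signal also seen at negative control probes stays in, the differences were 0.45 and 0.46. With normexp and an offset of 50 they were 0.40 and 0.43. An offset of 16 put Acaa2 at 0.58. With each array left out, Acaa2 lay between 0.99 and 1.12 and Apoe between 0.57 and 0.67, on either side of 1.5-fold for Apoe.

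Of all probes tested, 152 were called, 50.7% of them higher in db/db hearts. The count was 66 and 45 with normexp at offsets of 16 and 50, and between 129 and 170 with an array left out. Without normalization it was 218, 85.3% higher. Of the linear transcript probes, 5 were called. The number was 1 with normexp at either offset, with neither member called, 2 with the slide row as a block, and 3 when signal well above background was required on 6 of 6 arrays, with adjusted in place of unadjusted p and with the methods' t-test. Of those 5, 2 were higher, but all 5 called without normalization were. With an array left out it was between 2 and 5: 2 without WT replicate 1, 3 without WT replicate 2 and 3 without db/db replicate 3. After Benjamini-Hochberg adjustment the methods' t-test called 90 probes, 3 of them linear transcript probes. The causes were not tested.

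With the replicate number as a block, the differences were 1.05 and 0.61, which the balanced layout fixes in advance, and the counts 154 and 5. Deviations of same-numbered arrays correlated at 0.10, 0.35 and -0.06 across probes, which does not make same-numbered hearts pairs. Signal over background limits Acaa2 in WT hearts.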
